A study of Caenorhabditis elegans with 3 samples.

Results

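The nuclear genes for isoleucine and valine tRNAs of the nematode Caenorhabditis elegans are described here by how strongly RNA polymerase III (Pol III) was found on them. They were chosen by annotation alone, as nuclear genes of type tRNA with the product tRNA-Ile or tRNA-Val in the RefSeq annotation of WBcel235, the same sequence as build ce11. This gave 60 of the 612 nuclear tRNA genes, 29 for isoleucine and 31 for valine. Chromatin bound by RPC-1 was precipitated and sequenced (ChIP-seq). RPC-1 is the largest subunit of Pol III, and the material was whole young adult hermaphrodites of the transgenic strain YL517. The worms stably expressed RPC-1 with a C-terminal GFP-FLAG tag, the antibody was directed against GFP, and there were 3 biological replicates of this 1 group. No other genotype or treatment was compared, the exact age is unknown per the labels, and the cells of all tissues were measured together. A gene with little Pol III in every cell therefore cannot be told apart from one bound in few cells.

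Pol III transcribes tRNA genes from promoters that lie inside the gene. The factor TFIIIC binds the A box near the start and the B box further in, TFIIIB is then placed upstream and recruits the polymerase, and transcription ends at a run of T on the sense strand. Genes for one tRNA are usually present in many copies, and the anticodon decides which codons the tRNA reads. Isoleucine tRNAs with the anticodon UAU commonly carry an intron next to the anticodon. A long variable region, between the anticodon stem and the T stem, is typical of leucine and serine tRNAs, and nematodes also have tRNAs of this shape with anticodons for other amino acids.

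The sequences below are shown as examples of each kind of gene that the values are given for. They come from the RefSeq assembly WBcel235, on the sense strand from 5′ to 3′, and each includes 20 bases after the annotated gene. Capitals mark, in order, the A box core, the anticodon, the intron or the long variable region where there is one, the B box core and the first run of at least 4 T. The A box core was searched as TNGNNNAG in the first 30 bases and the B box core as GTTCNANNC, both on the sense strand only. C02D4.t1 is one of the 21 isoleucine genes with anticodon AAT in DNA letters. F57F5.t1, K11C4.t1 and C02B4.t1 have anticodon TAT and an annotated intron. F47A4.t1 has anticodon TAT, no intron and a variable region of 16 bases.
C02D4.t1: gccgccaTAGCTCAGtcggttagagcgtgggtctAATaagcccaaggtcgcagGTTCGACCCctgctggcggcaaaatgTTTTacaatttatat
F57F5.t1: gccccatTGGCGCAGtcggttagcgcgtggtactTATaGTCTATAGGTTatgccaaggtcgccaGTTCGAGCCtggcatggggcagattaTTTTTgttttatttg
K11C4.t1: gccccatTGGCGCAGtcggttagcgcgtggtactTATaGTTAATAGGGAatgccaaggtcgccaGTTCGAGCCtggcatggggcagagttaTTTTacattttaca
C02B4.t1: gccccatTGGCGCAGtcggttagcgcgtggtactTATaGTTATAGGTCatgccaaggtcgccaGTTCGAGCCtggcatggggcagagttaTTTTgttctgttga
F47A4.t1: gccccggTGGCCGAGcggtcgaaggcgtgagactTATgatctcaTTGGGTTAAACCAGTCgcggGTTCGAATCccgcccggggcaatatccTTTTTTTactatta

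The remaining isoleucine gene and the valine genes are shown in the same way. Y51A2B.t1 is the isoleucine gene in which no anticodon could be placed by its stem. R04D3.t2 (anticodon TAC), F12D9.t3 (AAC) and Y73B6BL.t1 (CAC) are the valine genes with the highest signal for their anticodons.
Y51A2B.t1: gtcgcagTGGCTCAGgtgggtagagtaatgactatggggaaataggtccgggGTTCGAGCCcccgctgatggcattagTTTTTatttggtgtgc
R04D3.t2: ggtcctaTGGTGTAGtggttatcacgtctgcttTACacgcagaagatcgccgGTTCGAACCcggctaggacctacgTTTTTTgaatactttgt
F12D9.t3: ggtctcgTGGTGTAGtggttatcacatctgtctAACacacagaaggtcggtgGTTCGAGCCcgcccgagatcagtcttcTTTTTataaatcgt
Y73B6BL.t1: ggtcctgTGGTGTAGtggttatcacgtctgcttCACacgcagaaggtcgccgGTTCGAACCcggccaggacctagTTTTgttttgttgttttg

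In Y73B6BL.t2, the valine gene without a reproducible peak, the capitals mark the bases that were inserted or substituted relative to Y73F8A.t1 and the run of T.
Y73B6BL.t2: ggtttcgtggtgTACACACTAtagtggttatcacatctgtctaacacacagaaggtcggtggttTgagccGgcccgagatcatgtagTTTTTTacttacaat

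Each deposited peak carries a signal, which is the authors' own value for that peak and was compared only within 1 list. Occupied genes are those that a peak of the reproducible list overlapped by at least 1 bp, and each was given the strongest such peak. Where tRNA genes lie close together, that peak can have its summit at a neighbour. A rank by summit, given for some of these genes, uses instead the strongest reproducible peak with its summit within 100 bp of the gene. That list held 1914 nuclear peaks kept for their agreement between replicates. Of these, 0 appear with identical bounds and summit in the replicate or pooled lists. The peak call behind them is thus unknown, and replicate ranks are given beside many of their values. The lists of the replicates held 24159, 24539 and 29975 nuclear peaks, weak ones and background included, and were used by rank, where rank 1 is the strongest peak. Read numbers are not part of the lists, so the depth behind a peak is unknown. With 3 replicates of 1 group an exact sign-flip test of a difference between gene sets cannot go below a two-sided p of 0.25, so no test was made. Rank differences are given with their SD over the replicates.

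Nearly all isoleucine and valine tRNA genes were occupied, as were nearly all tRNA genes. A reproducible peak overlapped 29 of the 29 isoleucine genes (exact binomial 95% interval 88.1 to 100%) and 30 of the 31 valine genes (96.8%, interval 83.3 to 99.9%). The share among all nuclear tRNA genes was 96.4%, so the members' counts were near the background. The strongest 1914 peaks of each replicate gave the same counts of 29 and 30 genes, beside 95.3%, 95.3% and 95.8% of all nuclear tRNA genes in replicates 1, 2 and 3. Among the stronger 957 of the reproducible peaks, 26 isoleucine genes and 30 valine genes were overlapped, beside 93.3% of all. The 3 isoleucine genes that dropped out there were Y51A2B.t1 and the TAT copies C36F7.t2 and F47A4.t1.

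As a group, the isoleucine and valine genes ranked close to the other tRNA genes. Their median rank averaged 347 ± 6.95 over the replicates, against 320 ± 3.61 for the 552 other tRNA genes (SD, n = 3). The difference was 33.5, 15 and 32.5 ranks in replicates 1, 2 and 3, a mean of 27 ± 10.4, so the members were slightly weaker in all 3 replicates. Without the 7 longer isoleucine genes the mean difference was 7 ± 33.3, with replicate 2 on the other side of 0.

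Isoleucine genes ranked lower than valine genes. Isoleucine genes had median ranks of 438, 423 and 443 in replicates 1, 2 and 3, against 338, 258 and 350 for valine genes. The difference was 119 ± 39.7 ranks and positive in 3 of 3 replicates. It was 65 ± 38.8 without the longer isoleucine genes, and 71.2 among genes that shared their peak with no other tRNA gene. Among the 20 isotypes with at least 10 genes, isoleucine stood in place 17, 17 and 16 from the strongest, near phenylalanine, asparagine and proline. Valine stood in place 13, 3 and 15, so its place was not settled beyond the spread between replicates.

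**Figure D1:**
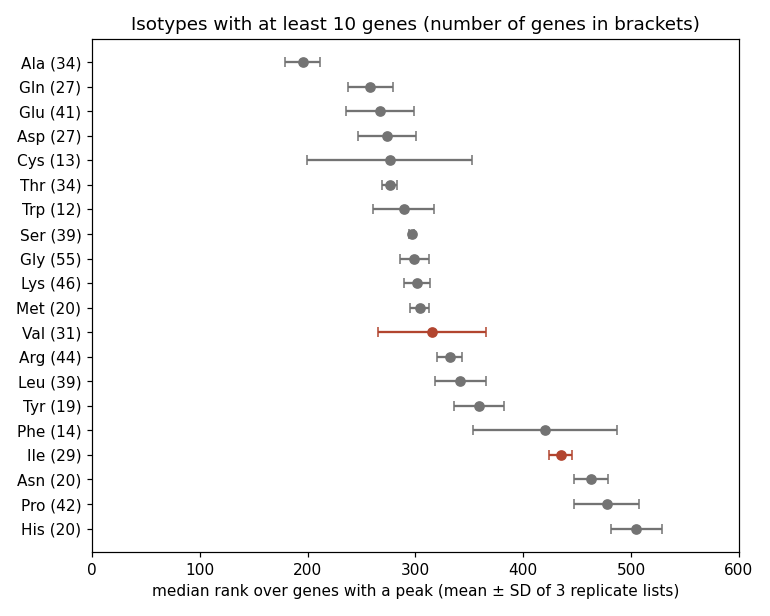
Median rank of the strongest overlapping peak for each tRNA isotype with at least 10 genes, over genes with a peak; points are the mean and bars the SD of the 3 replicate lists, isoleucine and valine are red, and smaller ranks are stronger. Isoleucine lies at 434.7 ± 10.4 among the 4 weakest isotypes, and valine at 315.3 ± 50.0 overlaps most of the others.

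All isoleucine genes but Y51A2B.t1 fell into 3 kinds, and one of these was far weaker than the others. The 21 AAT genes, all 74 bp long, had reproducible signals from 951 to 5585 with a median of 2915. The AAT genes with the highest signal were C02D4.t1 (5585, rank 45) inside ser-2, a receptor gene, C42D8.t1 (4541, rank 120) outside protein-coding genes and T21B4.t1 (4422, rank 135) inside col-85, a collagen gene. Those with the lowest were C27A2.t1 on chromosome II (951, rank 706) and the tandem genes B0344.t1, B0344.t2 and B0344.t3 inside the hedgehog-related gene wrt-9. These 3 share a strongest peak of 1589 at rank 599, which has its summit at B0344.t3. By summit they ranked 815, 611 and 599, so B0344.t1 was then weaker than C27A2.t1 at 706.

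The 7 longer isoleucine genes all have anticodon TAT, but they are of 2 kinds. In the 3 with an annotated intron of 10 or 11 bp, the joined exons are 74 bp long, identical to each other and 17 edits from the nearest isoleucine gene of another sequence, an AAT copy. C02B4.t1 (X, 12661164 to 12661247) had a signal of 4037 and ranks of 248, 173 and 125 in replicates 1, 2 and 3. F57F5.t1 (V, 12002176 to 12002260) had a signal of 3784 and ranks of 228, 285 and 272. K11C4.t1 (V, 6917466 to 6917550), in an intron of unc-68 (the ryanodine receptor), had a signal of 1484 and ranks of 580, 707 and 647. All 3 lay within the range of the AAT genes in every replicate. Their median rank was 268.3 ± 18.8, against 274.5 ± 21.4 for the 26 intron-bearing genes of other isotypes, 25 of them occupied (SD, n = 3).

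The other 4 TAT genes are 85 bp long, identical to each other and without an intron, and their added length is a variable region of 16 bases where the other members in which this region could be measured have 5 (it could not be measured in Y51A2B.t1 and Y73B6BL.t2). They were all occupied, and weakly. T22C1.t1 (I, 7960837 to 7960921) had a signal of 1102 and ranks of 805, 711 and 761 in replicates 1, 2 and 3. C36F7.t3 (I, 9563843 to 9563927) had a signal of 636 and ranks of 1157, 1025 and 1029. C36F7.t2 (I, 9562353 to 9562437) had a signal of 407 and ranks of 1208, 1236 and 1061. F47A4.t1 (X, 9829667 to 9829751), in an intron of rrc-1, had a signal of 321 and ranks of 1230, 1383 and 1222. In replicates 1 and 3 all 4 ranked below every AAT gene, whose lowest ranks were 761 and 664. In replicate 2 T22C1.t1 at 711 overlapped the AAT genes, which reached 767, and in the reproducible list it did so too, at rank 671 against 706.

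**Figure D2:**
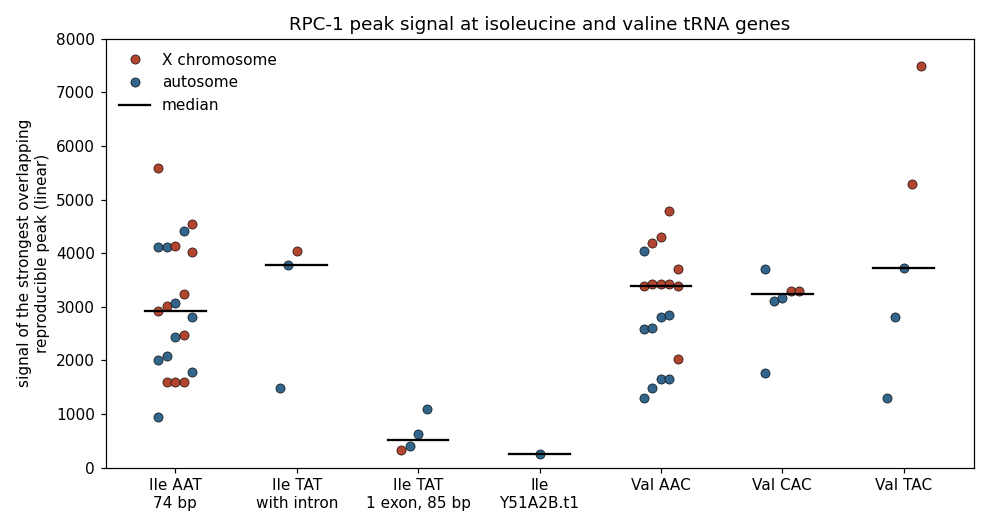
Signal of the strongest overlapping reproducible peak (linear axis, the authors' value) for each isoleucine and valine tRNA gene with a peak, by anticodon and kind; each point is a gene, red on the X chromosome and blue on autosomes, and lines are medians. The 4 TAT genes of 85 bp with 1 exon lie between 321 and 1102, and Y51A2B.t1 at 255 is the lowest of all.

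As planned, all 7 longer genes were first set against the 22 genes of 74 bp. The longer genes had a median rank of 759 ± 47, against 380.3 ± 22.3 for the 74 bp genes, a difference of 379 ± 49.4 ranks in the same direction in 3 of 3 replicates. The split by kind, made after the values were seen, showed that this difference came with the 4 genes of 85 bp without an intron. They ranked 739 ± 89.9 places behind the 74 bp genes. The 3 intron-bearing genes had the opposite sign, at -112 ± 28.0 ranks, and so stood ahead of the 74 bp genes in 3 of 3 replicates.

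**Figure D3:**
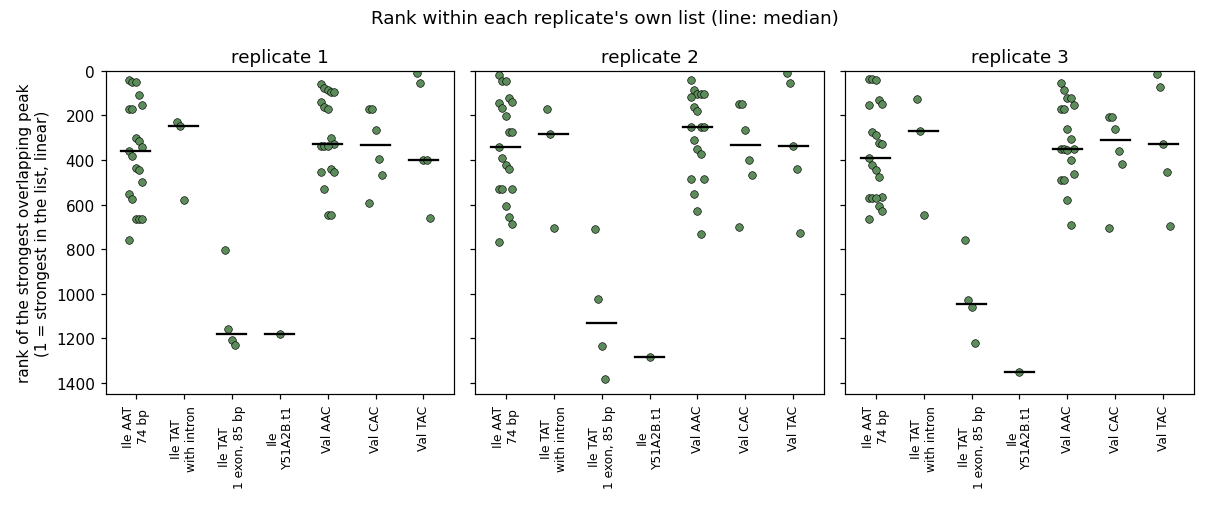
Rank of the strongest overlapping peak within the list of each replicate (linear axis, inverted so that stronger is higher) for the same kinds of gene; each point is a gene and lines are medians, and Y73B6BL.t2, with ranks of 16435 and 12403 and none in replicate 2, is left out. The 85 bp TAT genes lie at 805 to 1230, 711 to 1383 and 761 to 1222 in replicates 1, 2 and 3.

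The leucine and serine genes, most of which have a long variable region, had stronger ranks. Of the leucine genes 37 of 39, and of the serine genes 38 of 39, had a variable region of at least 10 bases. The 4 isoleucine genes had a median reproducible rank of 917, against 309 for these leucine genes and 273.5 for these serine genes. By annotated product, a long variable region was also measured in 1 glutamine, 1 proline and 1 selenocysteine gene, with reproducible ranks of 675, 637 and 713. It was further measured in 1 arginine, 1 histidine and 3 glycine genes without a reproducible peak. Up to the limit chosen here, the genes nearest in sequence to the 85 bp isoleucine genes were few and mostly without a reproducible peak. The nearest leucine and serine genes lay past it, at 26 and 27 edits. Of the genes with a long variable region, 36 of the 37 leucine and all 38 serine genes were occupied. Within 22 edits, a limit set after the distances were seen, lay 7 genes of other annotated products, of which 1 was occupied and 6 were not. The occupied one was C36F7.t1, annotated as a glutamine tRNA gene and 3 edits away, with a signal of 1094 at rank 675. The others, named by annotated product, were the histidine gene K01A6.t1 at 16 edits and the arginine gene Y102E9.t1 at 17. Further off were the lysine gene F37A4.t1 at 21 and the glycine genes T22A3.t2, T22A3.t3 and T22A3.t4 at 22. Where these 6 had a peak in a replicate's list, its rank was 1950 or weaker. All 7 held a B box core. Placed by their stems, the anticodons were CTC in C36F7.t1, GGG in K01A6.t1, CCT in Y102E9.t1 and CCC in the glycine genes. None could be placed in F37A4.t1.

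The lowest reproducible signal of the members was that of Y51A2B.t1 (V, 18373963 to 18374036), with a signal of 255 at rank 1220 and ranks of 1179, 1283 and 1352 in the replicates. In replicates 1 and 2 F47A4.t1 ranked weaker than it. It is 74 bp long and holds both box cores and a run of T, but its sequence lies 27 edits from the nearest other isoleucine gene and 21 from a histidine gene. None of its 32-base words occurs elsewhere in the genome. It lay 1010 bp from C08E8.t3, a tRNA gene with no product given, which at 14 edits was the nearest to it of the genes compared.

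The 30 occupied valine genes spanned signals from 1296 to 7493. The AAC genes numbered 20, the CAC genes 6 and the TAC genes 5. Their median ranks were 312 ± 53.1 for AAC, 324.5 ± 12.1 for CAC and 356 ± 36.9 for TAC (SD, n = 3). This SD is between lists and does not measure the spread between genes. In the reproducible list the medians were 301, 322.5 and 245, so no order of the anticodons was settled. The TAC gene R04D3.t2 (X, 13307034 to 13307106) had the strongest peak of all members, with a signal of 7493 and ranks of 10, 9 and 12 in replicates 1, 2 and 3. It stood in place 4 among all tRNA genes of the reproducible list. The next TAC gene, F35A5.t1 (X, 3793564 to 3793636), had 5299 and ranks of 56, 54 and 73. T25E4.t1 on chromosome II had 3727, K10C8.t1 on V had 2813, and W03C9.t1 on II had the lowest signal of the valine genes with a peak, 1296, at ranks of 658, 728 and 698. The 5 TAC genes thus covered nearly the whole range of the valine genes. By summit, however, the AAC genes T28D6.t1 at rank 659 and T01B4.t2 at 657 were slightly weaker than W03C9.t1 at 648.

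R04D3.t2 and T25E4.t1 have the same sequence and differed 2.01-fold in signal, with ranks of 10, 9 and 12 against 398, 339 and 330. Relative to T25E4.t1, counted from 1 at the 5′ end of the gene, K10C8.t1 carried A7G and T66C, which change both sides of a pair in the acceptor stem. F35A5.t1 carried the same 2 changes and A59T. W03C9.t1 carried these 3 and also A43T, A46G and T47C. The strong F35A5.t1 and the weak W03C9.t1 thus share 3 changes.

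Among the AAC genes, F12D9.t3 (4794), F49E2.t1 (4308) and T01B4.t1 (4194), all on the X chromosome, had the highest signals. F14H8.t1 inside obr-2 (1477) and F22G12.t2 inside F22G12.4 (1307) had the lowest. By summit, however, these stood at ranks 614 and 644, ahead of T01B4.t2 at 657 and T28D6.t1 at 659. The CAC genes had the narrowest range of signal of the valine genes. Y73B6BL.t1 inside tyr-6 had 3705, C05G6.t1 inside C18H7.1 had 3172, K03B8.t1 inside grl-3 had 3111 and F21A3.t2 inside lgc-31 had 1765. F59C12.t1 and F59C12.t3 shared a strongest peak of 3293, with its summit 435 bp from the first and 29 bp from the second. By summit they ranked 417 and 314. C05G6.t1 differed from Y73B6BL.t1 by G7C and C66G, again both sides of 1 pair in the acceptor stem, and its ranks of 396, 399 and 358 were within the range of the CAC genes.

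Y73B6BL.t2 (IV, 6470291 to 6470372) was the only member that no reproducible peak overlapped. T01B4.t3 counted as occupied through the peak it shares with T01B4.t2 and T01B4.t4, which has its summit 428 bp from it. No reproducible summit lay within 100 bp of T01B4.t3. Y73B6BL.t2 has anticodon AAC and lies in an intron of tmed-13, on the opposite strand. The list of replicate 1 had a peak over it at rank 16435, that of replicate 3 at rank 12403 and that of replicate 2 none, against ranks of 330, 351 and 353 for Y73F8A.t1, to which it was compared. It was the only one of the 60 genes that lacked the A box core and the only one that lacked the B box core. Relative to Y73F8A.t1, counted from 1 at the 5′ end of that gene, it carried 9 inserted bases after position 12, within the A box core, C56T within the B box core and C62G just after it. Of its 32-base words 23.5% also occur elsewhere in the genome, against 100% for Y73F8A.t1. Of the other isotypes, 4 genes lacked both cores and 3 of these were occupied.

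The A box core was present in 59 of the 60 members, against 452 of the 552 other tRNA genes (81.9%). The B box core was present in 59 members, against 528 of the others (95.7%). A run of at least 4 T within 40 bases after the gene followed all 60 members and 545 of the others (98.7%). A match is a description of letters and not a measure of binding. At the 41 members with a summit and no other tRNA gene within 1000 bp, the reproducible summit lay a median of 14 bp downstream of the start of the gene, against 13 bp at 319 other such tRNA genes. In the replicates these medians averaged 21.3 ± 2.75 bp for the members and 18.5 ± 1.80 bp for the others (SD, n = 3).

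Genes with identical sequence differed widely. Counted with their introns, the 29 isoleucine genes had 8 distinct sequences, and 19 of the AAT genes were identical. These 19 genes, on 4 chromosomes, had signals from 951 at C27A2.t1 to 5585 at C02D4.t1, a ratio of 5.87. In replicates 1, 2 and 3 their ranks ran from 39 to 761, 20 to 767 and 38 to 664. The 31 valine genes had 11 distinct sequences. The largest set, 12 identical AAC genes, had signals from 1307 to 4794, a ratio of 3.67, and the 5 identical CAC genes differed 2.10-fold. The order was kept closely between replicates, with Spearman's rho across 59 or 60 members from 0.966 to 0.977. These values are across genes, some of which share a peak, and are a description. In identical copies every 32-base word of the gene occurs elsewhere, so reads within the gene cannot be placed by sequence alone. How such reads were treated is not given in the sources used here, and its part in these values was not tested.

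**Figure D4:**
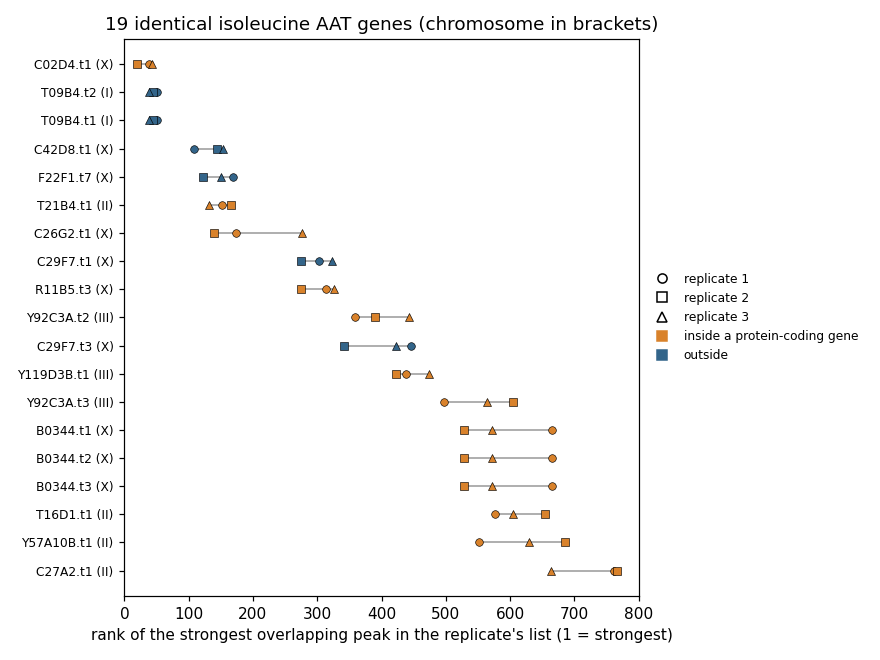
Rank of the strongest overlapping peak in the lists of replicates 1 (circle), 2 (square) and 3 (triangle) for 19 identical isoleucine AAT genes, with orange for genes inside a protein-coding gene and blue for genes outside, and the chromosome in brackets; smaller ranks are stronger. The 3 replicates of a gene lie close together beside the whole range from 20 to 767, and all 6 of the genes outside lie at 446 or stronger. T09B4.t1 and T09B4.t2 share their peak, as do B0344.t1, B0344.t2 and B0344.t3.

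The setting of the gene went with its rank. This comparison was chosen after the values were seen. The 32 members inside a protein-coding gene, all in introns, had a median rank of 472 ± 7.57, against 175 ± 15.2 for the 28 members outside (SD, n = 3). For the other tRNA genes the medians were 363 ± 8.84 inside and 270 ± 0.577 outside. Within the AAT isoleucine genes the 15 inside had 451 ± 19.7 and the 6 outside 141 ± 9.57. Within the AAC valine genes the 8 inside had 429.5 ± 56.5 and the 12 outside 157 ± 13.6. The ranges overlapped, since C02D4.t1, the strongest isoleucine gene, lies inside ser-2. In the reproducible list the same medians were nearer to each other, 453 for the members inside and 299 for those outside. There they were 453 inside and 195.5 outside for the AAT genes, and 392 inside and 301 outside for the AAC genes. Both anticodon sets hold genes that share a reproducible peak with another tRNA gene, and they were not compared without these. Among the AAT genes these were T09B4.t1, T09B4.t2 and F22F1.t7 outside, and B0344.t1, B0344.t2 and B0344.t3 inside. Among the AAC genes they were C16H3.t1, C16H3.t2, T28D6.t1, T28D6.t2 and T01B4.t2 outside, and T01B4.t3 and T01B4.t4 inside. By summit T09B4.t2 ranked 529, against 190, and F22F1.t7 ranked 356, against 201.

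Members on the X chromosome were stronger than those on autosomes. The 27 on X had a median rank of 198 ± 52.8, against 461 ± 11.1 for the 33 on autosomes, and other tRNA genes showed 207 ± 7.52 on X and 414 ± 21.6 on autosomes. Both settings went with rank when set against each other. On X the 12 members inside protein-coding genes had 318 ± 48.0 and the 15 outside 146 ± 20.6. On autosomes the 20 inside had 567 ± 40.5 and the 13 outside 333 ± 5.20. The differences were smaller in the reproducible list, where the medians were 297 on X and 443.5 on autosomes. There they were 344 inside and 201 outside on X, and 510 inside and 431 outside on autosomes. Of the members, 15 shared their reproducible peak with another tRNA gene. Among the 45 without a shared peak in that list, which include Y73B6BL.t2, the 27 inside had replicate ranks of 461 ± 5.80 and the 18 outside 226 ± 12.6. Peaks shared in the replicate lists were not left out here. In the reproducible list the medians of these genes were 426 inside and 240.5 outside.

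Of the 59 members with a rank in all lists, 20 ranked weaker in the reproducible list than in every replicate, 15 ranked stronger and 24 lay within the replicates' range. Of the 20 weaker ones 11 had another tRNA gene within 1000 bp and 9 did not, whereas 42 of all 60 members had none. These counts were not made for the other tRNA genes. Examples chosen after the values were seen, all with another tRNA gene within 1000 bp, are the following. Y65A5A.t3, a valine gene on chromosome IV and 694 bp from the histidine gene Y65A5A.t4, stood at rank 397 in the reproducible list. Its ranks in replicates 1, 2 and 3 were 85, 180 and 53. The identical pair T09B4.t1 and T09B4.t2 stood at 190 in the reproducible list, against 50, 44 and 38 in the replicates. The pair C16H3.t1 and C16H3.t2 stood at rank 301, against 93, 104 and 173.

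Isoleucyl- and valyl-tRNA synthetases and the tRNA ligase are encoded by protein-coding genes, which Pol II transcribes. Whether each gene named here acts on the nuclear tRNAs was not examined. The valyl-tRNA synthetase gene vars-2, also on the fixed list, was not found by symbol and has no value. Of the isoleucyl-tRNA synthetase genes iars-1 and iars-2, the valyl-tRNA synthetase gene vars-1 and the tRNA ligase gene rtcb-1, none (0 of 4) had a reproducible peak within 250 bp of an annotated start, beside 1.57% of all protein-coding genes.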

How the data were processed

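RPC-1 binding was measured by ChIP-seq in 3 biological replicates of 1 group. Per the file headers and names, the authors deposited peak lists on ce11 for each replicate, for the pooled replicates and for peaks found reproducible by IDR (irreproducible discovery rate), and the deposited signal (column 7) is the peak caller's own value. Control, aligner and caller: not given in the sources used here. Depth is unknown, and the intervals reflect only how many genes were counted. The replicate and pooled lists are IDR input that includes background.

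From these files, mitochondrial genes and peaks were left out, peaks were ranked by signal within each list, and each gene took its strongest peak with at least 1 bp of overlap. Replicate values are medians over genes with a peak, then mean ± SD of 3 lists. Shares have exact (Clopper-Pearson) 95% intervals. Summits were the nearest within 300 bp of the gene start. Anticodons were placed by a stem of 5 bp with at least 4 pairs around a loop of 7 bases. Edit distances between spliced sequences were counted with edlib 1.3.9.post1, in Python 3.11.15 with NumPy 2.4.6 and SciPy 1.17.1. The rank and overlap steps were tested on simulated data. Coordinates are WBcel235 (ce11), counted from 1. Columns of per-sample values left unused numbered 0 on the build analysed, and the ce10 lists were not used.

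The planned set of intron-bearing isoleucine genes also took 1-exon genes over 80 bp. Named genes are the intron-bearing members, the members without a reproducible peak and, per anticodon, the 3 highest and 2 lowest by reproducible signal. Genes outside that rule were named after their values were seen. A list of 5 enzyme genes was fixed, of which 4 were found by symbol. The members and lists were chosen with earlier results of these data known.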

Additional observations from a re-analysis of the deposited data

How the results depend on the processing

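No paired analysis was possible because there is 1 group. Occupancy of isoleucine genes was 89.7% with the stronger 957 reproducible peaks and 100% under the other alternatives, and occupancy of valine genes was 93.5 to 96.8%. Leaving out a replicate gave 100 to 100% for isoleucine and 96.8 to 96.8% for valine genes. The rank difference between members and other tRNA genes was 58 in the reproducible list, 7 without the longer isoleucine genes (chosen after seeing the data) and 23.8 to 33 with 1 replicate left out. The difference between isoleucine and valine genes was 71.2 for genes with no shared peak, 65 without the longer isoleucine genes (likewise chosen later) and 96.5 to 132.5 with 1 replicate left out. The difference between longer and 74 bp isoleucine genes was 280.5 in the reproducible list and 350 to 395 with 1 replicate left out. Under 2 alternatives chosen after seeing the data it was 739 for the 1-exon genes of 85 bp and -112, the opposite sign, for the intron-bearing genes, because the 7 longer genes are of 2 kinds. The median summit was at 21 bp in the strongest 1914 pooled peaks and at 14 to 14 bp with 1 replicate left out. For occupancy and summits a replicate was left out only as a filter on the reproducible peaks, which were made from all 3, so these values could hardly move and show no stability. Apart from the alternatives chosen later, none changed the sign of a difference. Unknown depth limits what a missing peak shows, and 3 or 4 genes of a kind limit how far their medians hold.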
